A study of Mus musculus with 10 samples.

Results

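The genes described here move calcium out of the cytosol of heart cells or set the speed of that transport. They are the SERCA pumps Atp2a2, Atp2a1 and Atp2a3, the SERCA inhibitors Pln and Sln, the plasma membrane pumps Atp2b1 and Atp2b4, and the exchangers Slc8a1 and Slc24a2. The 9 genes were chosen by name from 14626 genes in the deposited table, and the Pln to Atp2a2 ratio was added. RNA was sequenced from hearts of 5 Lmna KO mice and 5 wild-type (WT) mice. All 10 mice were on the C57BL/6 background and were sampled at postnatal day 14. The Lmna KO mice are labelled Lmna -/-, and Lmna encodes lamin A and lamin C, which line the inside of the nuclear envelope. The labels do not describe how the Lmna allele was made, and each library carries its own animal number.

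At each heartbeat calcium enters through surface channels and sets off a larger release from the sarcoplasmic reticulum, and the muscle relaxes when that calcium is cleared again. In mouse ventricle most of it is returned to the reticulum by SERCA2a, the cardiac product of Atp2a2, and most of the rest leaves through the sodium-calcium exchanger encoded by Slc8a1. Phospholamban, from Pln, holds SERCA2a back until it is phosphorylated under beta-adrenergic drive. Sarcolipin, from Sln, is a related inhibitor that in the mouse heart is found mainly in the atria.

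Each value is a signal, a CPM value of the scaled library size. Library totals were 15259545 to 22146030 reads, so that 1 read was worth 0.0447 to 0.0672 signal units. Lmna (chromosome 3, 88481148 to 88503352 in mouse build mm10) fell to 22.1 to 48.9 in Lmna KO hearts, against 102.3 to 110.1 in WT hearts (log2 change -1.69, limma adjusted p = 0.00461). Correlated with the WT libraries over all tested genes, Lmna KO library 5 averaged 0.905 and Lmna KO library 2 averaged 0.962, while the other Lmna KO libraries averaged 0.982 to 0.985 and the WT libraries among themselves 0.989 to 0.991. Results that turn on these libraries are given with and without them. In whole hearts, fewer cells of a type and less RNA per cell cannot be told apart.

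Of the 9 genes, 8 reached the mean signal of 1 that was needed for the test, and Atp2a1 did not. Slc24a2 rose in Lmna KO hearts and was the 1 gene of 8 that passed (limma, adjusted p under 0.05), while 0.202% of all 12855 tested genes passed, 0.117% as higher and 0.0856% as lower. Atp2a2 and Slc24a2 were the 2 genes of 8 whose Lmna KO and WT values did not overlap, which was so for 10.3% of all tested genes, 6.18% with Lmna KO below WT and 4.07% with Lmna KO above WT. Sln had 37 to 319 reads in 4 of 5 Lmna KO hearts and at most 3 in WT hearts, and it did not pass. The other 5 tested genes, Atp2a3, Pln, Atp2b1, Atp2b4 and Slc8a1, had log2 changes between -0.10 and -0.03, against a median of -0.0097 over all tested genes.

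**Figure D1:**
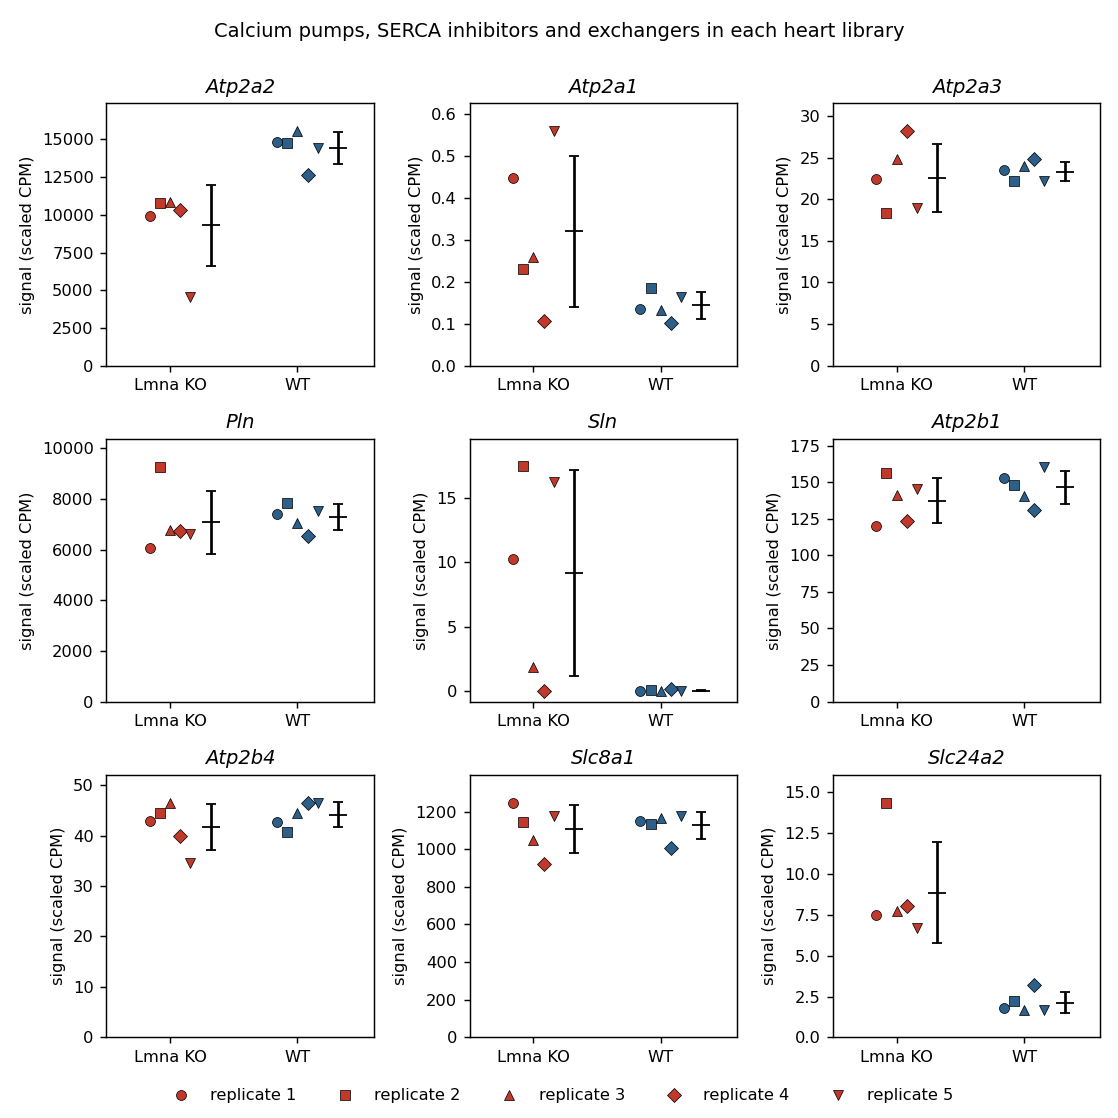
Signal of the 9 genes (y axes, scaled CPM, linear and starting at or just below 0) in each Lmna KO and WT heart library, with symbols for the replicate number and bars for the mean ± SD (n = 5 each). Atp2a2 and Slc24a2 show no overlap of the genotypes, and Sln ranges from 0 to 17.4 among Lmna KO libraries.

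Atp2a2 (chromosome 5, 122453513 to 122502225), the pump gene of the cardiac sarcoplasmic reticulum, had signals of 9926, 10814, 10864, 10323 and 4560.0 in Lmna KO libraries 1 to 5, against 14840.4, 14792, 15529, 12651 and 14407 in WT libraries 1 to 5. Every Lmna KO library lay below every WT library, and Lmna KO library 5 lay far below the other 4. The means were 9297 ± 2676 in Lmna KO hearts and 14444 ± 1081 in WT hearts (SD, n = 5 each), so the Lmna KO mean was 64.4% of the WT mean. The log2 change was -0.70 (standard error 0.26, 95% interval -1.27 to -0.13), which did not pass over all genes (limma adjusted p = 0.176).

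Lmna KO library 5 set much of both the size and the spread of the Atp2a2 difference. The 4 other Lmna KO libraries averaged 10482 ± 444 (SD, n = 4), which is 72.6% of the WT mean, against 31.6% in library 5 alone. Without library 5 the log2 change was -0.46 (standard error 0.12, 95% interval -0.73 to -0.19, limma adjusted p = 0.0577). In that fit 4.96% of 12840 genes passed, 2.25% as higher and 2.71% as lower. The gene passed in 3 of 23 alternatives, namely edgeR's quasi-likelihood test without library 5 (log2 change -0.46, adjusted p = 0.0189), limma with library quality weights (-0.49, adjusted p = 0.01) and limma without Lmna KO libraries 2 and 5 (-0.48, adjusted p = 0.0103). Over the other 20 the adjusted p was 0.0506 with DESeq2 on all libraries and reached 0.33. The authors' deposited table gives a log2 ratio of -0.64 and a false discovery rate of 0.0634 for Atp2a2.

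The median of the cardiomyocyte markers was low in Lmna KO libraries 2 and 5. The median of 13 such markers, as a log2 difference from the WT mean, was -0.07, -1.02, -0.14, -0.10 and -0.79 in Lmna KO libraries 1 to 5. Their summed signal was 86859 to 158550 in Lmna KO hearts and 156422 to 172293 in WT hearts. In Lmna KO library 5 the markers went both ways. Actc1 was at 792 there, against a WT mean of 9773, while Tnnt2 was at 8581, Csrp3 at 3963 and Actn2 at 2757, against WT means of 4266, 958 and 1710.4. In the all-library limma fit 0 of the 13 passed, 1 had an unadjusted p under 0.05, and edgeR and DESeq2 called 0. Of all 12855 tested genes, 26 passed, 2679 had such a p, and edgeR and DESeq2 called 20 and 786.

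The same log2 difference for Atp2a2 was -0.54, -0.41, -0.41, -0.48 and -1.66. Atp2a2 was thus further below WT than the marker median in Lmna KO libraries 1, 3, 4 and 5, and less far below it in library 2. Another measure set Atp2a2 against the median log2(signal + 0.5) level of the 13 markers in its own library, not against their median difference. On it Atp2a2 differed from the WT mean by -0.49, 0.48, -0.49, -0.66 and -1.03 in Lmna KO libraries 1 to 5. The genotypes overlapped on this scale because of library 2. Markers of some other cell types also stood apart in Lmna KO library 5. The median log2 difference from the WT mean was -2.42 over 8 fibroblast markers and -2.17 over 3 erythroid markers there. In Lmna KO libraries 1 to 4 it was -0.42 to 0.24 for fibroblast and -1.41 to 0.14 for erythroid markers. In library 5 the same median was -0.03 for endothelial, -0.06 for smooth muscle, -0.13 for lymphocyte and platelet and -0.64 for macrophage markers. The fibroblast markers went both ways in library 5, with Col3a1 at 127 and Dcn at 1378, against WT means of 3020 and 729. The part of cell composition in the Atp2a2 difference was not tested.

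The other SERCA genes were read at low levels in the heart. Atp2a3 (chromosome 11, 72961169 to 72993043) encodes the SERCA3 pump, known mainly from non-muscle cells. It averaged 22.5 ± 4.09 in Lmna KO hearts and 23.3 ± 1.14 in WT hearts (SD, n = 5 each). Its log2 change of -0.06 had a 95% interval of -0.33 to 0.20 (limma adjusted p = 0.777), and the genotypes overlapped.

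Atp2a1 (chromosome 7, 126445860 to 126463073) encodes SERCA1, the pump of fast skeletal muscle. It was covered by 10, 4, 5, 2 and 11 reads in Lmna KO libraries 1 to 5, against 2, 4, 2, 2 and 3 reads in WT libraries, or 32 reads against 13 in all. The signal was above every WT library, all at 0.186 or less, in 4 of 5 Lmna KO libraries, and Lmna KO library 4, at 0.107, lay within the WT range. With no filter on low signal the log2 change was 0.32 (limma adjusted p = 0.278). Of 3477 exon bases 763 are shared with Rabep2 on the opposite strand, and the sources used here do not state whether strand was used in counting. Fast skeletal muscle markers, of which 5 of 13 were read here, summed to 6.04 to 26.5 in Lmna KO hearts and 16.1 to 27.5 in WT hearts. Most of that sum was Casq1, at 2.34 to 22.5 in Lmna KO hearts and 12.6 to 24.5 in WT hearts. Actn3, a marker chosen after its values were seen, was at 0.268 to 0.519 in Lmna KO hearts and 0 to 0.219 in WT hearts, with no overlap and below the mean signal for the test. Of all tested genes 4.07% had every Lmna KO library above every WT library. Tnni2, Tnnt3 and Mylpf overlapped between the genotypes, with means of 1.67, 0.564 and 0.571 in Lmna KO hearts and 2.05, 0.674 and 0.484 in WT hearts. The part of skeletal muscle RNA in the Atp2a1 reads was not tested.

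Pln (chromosome 10, 53337686 to 53345999) had signals of 6059, 9248, 6764, 6735 and 6611 in Lmna KO libraries 1 to 5, against 7412, 7851, 7037, 6522 and 7543 in WT libraries 1 to 5. The genotypes overlapped, with Lmna KO library 2 above and library 1 below every WT library. The means were 7083 ± 1243 in Lmna KO hearts and 7273 ± 511 in WT hearts (SD, n = 5 each). The log2 change was -0.05 (standard error 0.17, 95% interval -0.43 to 0.32, limma adjusted p = 0.881). Without Lmna KO library 2 the log2 change was -0.15 (limma adjusted p = 0.437). Of its 2759 exon bases 1644 are shared with Gm47644 and 141 with Cep85l, both on the opposite strand, so reads of these genes cannot be told apart without the strand.

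The coding sequences of the 2 inhibitors show how short the proteins are, with 52 codons for Pln and 31 for Sln without the stop. Reads were counted over the whole gene, whose merged exons span 2.759 kilobases for Pln and 1.318 for Sln. They are given from the reference genome (GRCm38, the same build as mm10, with GENCODE M21 annotation) and lie on the plus strand, at chr10:53343864-53344022 for Pln and chr9:53853473-53853568 for Sln. In Pln the capitals mark codons 16 and 17, for the serine and the threonine whose phosphorylation by protein kinase A and CaMKII lifts the inhibition. In Sln the capitals mark the start and stop codons.
Pln: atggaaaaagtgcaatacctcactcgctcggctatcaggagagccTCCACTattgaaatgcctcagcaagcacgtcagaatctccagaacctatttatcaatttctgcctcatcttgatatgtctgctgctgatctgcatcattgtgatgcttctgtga
Sln: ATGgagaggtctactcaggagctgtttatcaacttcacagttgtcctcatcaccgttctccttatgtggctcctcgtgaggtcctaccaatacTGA

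The Pln to Atp2a2 ratio relates the transcript of the inhibitor to that of its pump. It was 0.610, 0.855, 0.623, 0.652 and 1.45 in Lmna KO libraries 1 to 5, against 0.499, 0.531, 0.453, 0.516 and 0.524 in WT libraries 1 to 5. All 5 Lmna KO ratios lay above all 5 WT ratios. The means were 0.838 ± 0.356 in Lmna KO hearts and 0.504 ± 0.031 in WT hearts (SD, n = 5 each, a log2 difference of 0.65). A two-sided exact permutation test of 5 against 5 values gave p = 0.00794, the smallest that these group sizes allow.

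In the genotype means, the higher ratio came with lower Atp2a2 and not with higher Pln. The log2 difference of 0.65 is made up of -0.05 for Pln and -0.70 for Atp2a2. Lmna KO libraries 1 to 4 averaged 0.685 ± 0.115 (SD, n = 4), 1.36 times the WT mean, and library 5 was at 2.87 times the WT mean. Without library 5 the log2 difference was 0.43, and without libraries 2 and 5 it was 0.32, with exact permutation p-values of 0.00794 and 0.0179, the smallest these numbers of libraries allow. Leaving out any 1 WT library kept all Lmna KO ratios above the remaining WT ratios. The exact permutation p-values were then 0.0238 to 0.0317, above the smallest possible of 0.00794. With these unequal groups, some other arrangements of the values gave differences in means at least as large. In Lmna KO library 2 the Pln signal itself was also the highest of all 10 libraries. On the log2 scale Pln was 0.35 above the WT mean there, with Atp2a2 at -0.41. Pln was also set against the median level of the 13 cardiomyocyte markers in its own library. On that scale it differed from the WT mean by -0.21, 1.25, -0.19, -0.28 and 0.50 in Lmna KO libraries 1 to 5.

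The same pattern of ratios was common among genes. Divided by Atp2a2, 44.6% of tested genes had every Lmna KO library above every WT library (44.7% in either direction), so the separation is not particular to Pln. Slc8a1 divided by Atp2a2, a ratio chosen after its values were seen and not tested, was 0.125, 0.106, 0.0965, 0.0892 and 0.258 in Lmna KO libraries 1 to 5 and 0.0752 to 0.0816 in WT libraries.

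**Figure D2:**
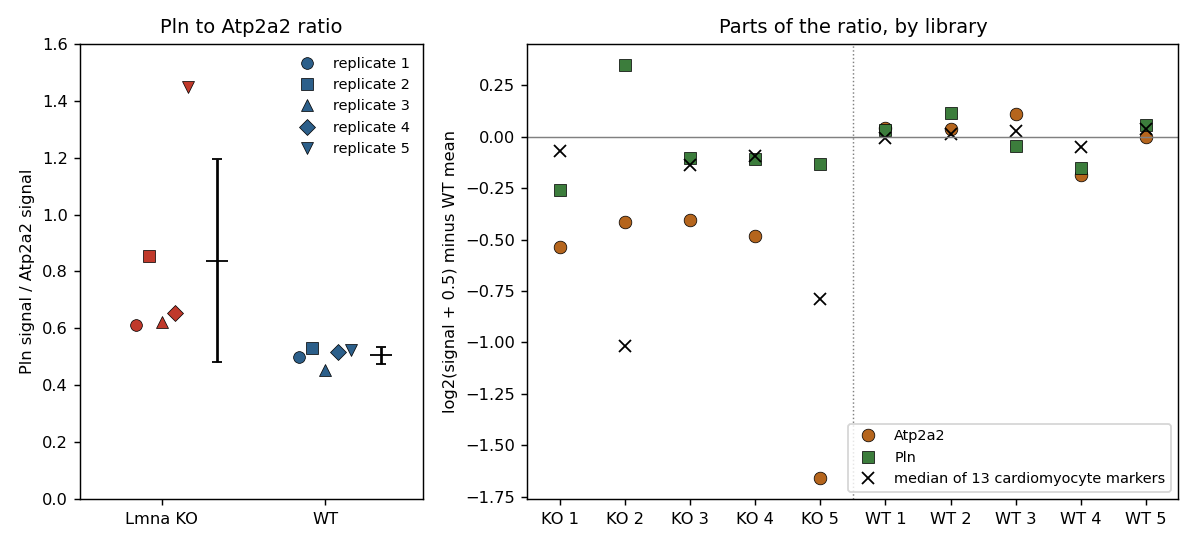
Left, ratio of Pln to Atp2a2 signal (y axis, linear from 0) in each library, with bars for the mean ± SD (n = 5 each): Lmna KO libraries lie between 0.610 and 1.45 and WT libraries between 0.453 and 0.531. Right, log2(signal + 0.5) minus the WT mean for Atp2a2 and Pln, and the median of this difference over 13 cardiomyocyte markers, by library. Atp2a2 is at -1.66 in Lmna KO library 5 and between -0.54 and -0.41 in the other 4.

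Sln (chromosome 9, 53850251 to 53853849) had signals of 10.2, 17.4, 1.92, 0 and 16.2 in Lmna KO libraries 1 to 5, against 0, 0.0929, 0.0668, 0.153 and 0 in WT libraries 1 to 5. In reads these were 229, 303, 37, 0 and 319 in Lmna KO libraries, against 0, 2, 1, 3 and 0 in WT libraries, or 888 reads against 6. The Lmna KO libraries thus split, with 4 of 5 above every WT library and library 4 at 0. A count of 0 allows up to 3 reads, or a signal of 0.161 in library 4. The means were 9.16 ± 8.0 in Lmna KO hearts and 0.0625 ± 0.0651 in WT hearts (SD, n = 5 each).

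The difference in Sln did not pass over all genes, with a log2 change of 3.22, a standard error of 0.84 and a 95% interval of 1.38 to 5.06 (limma adjusted p = 0.103). Without Lmna KO libraries 2 and 5 the log2 change was 2.07 (limma adjusted p = 0.0877). On log2(signal + 0.5) the size of this change depends on the 0.5 added, and it was 4.56 with 0.1 and 2.58 with 1 added. The gene passed in 4 of 22 alternatives. These were DESeq2 on recovered reads (log2 change 7.18, adjusted p = 0.000409), edgeR's quasi-likelihood test without Lmna KO library 5 (6.65, adjusted p = 0.0206), limma with library quality weights (2.29, adjusted p = 0.0106) and limma without Lmna KO library 4 (4.07, adjusted p = 0.0175). Over all 22 the adjusted p reached 0.242, and edgeR's quasi-likelihood test with all libraries gave 0.0629. The authors' deposited table gives a log2 ratio of 7.0 and a false discovery rate of 2.21e-07 for Sln.

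Among 11 atrial markers, Myl4 and Myl7 moved with Sln across the Lmna KO libraries, and they are also among the 3 genes of all candidates whose pattern was most like that of Sln. Myl4, the atrial essential myosin light chain, had signals of 50.2, 44.98, 15.5, 2.36 and 107 in Lmna KO libraries 1 to 5, against 2.23 to 2.79 in WT libraries. Myl7, the atrial regulatory light chain, had 54.8, 36.9, 13.9, 0.375 and 81.5 in Lmna KO libraries, against 0.0672 to 0.510 in WT libraries. In both genes Lmna KO library 4 lay within the WT range, as it did for Sln.

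Kcnj3, Nr2f1 and Bmp10, also atrial markers, did not follow Sln from library to library. Kcnj3, a potassium channel subunit, was at 16.05, 27.2, 15.6, 16.3 and 6.86 in Lmna KO libraries 1 to 5, against 18.0 to 27.4 in WT libraries. Nr2f1, a transcription factor, was at 1.57 in Lmna KO library 5 and 2.53 to 3.94 in the other 4, against 2.75 to 4.69 in WT libraries. Bmp10, a growth factor of the atria, was at 17.3 in Lmna KO library 5, at 0 to 0.0576 in the other 4, and at 0 in every WT library.

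The 11 atrial markers together summed to 280, 265, 160, 197 and 7024 in Lmna KO libraries 1 to 5, against 79.2 to 118 in WT libraries, and Nppa made up 6767 of the sum in Lmna KO library 5. Of 9 tested, 0 passed in the all-library limma fit and 4 had an unadjusted p under 0.05, while edgeR called 1 and DESeq2 called 3. The same counts over all 12855 tested genes were 26, 2679, 20 and 786. Without Lmna KO library 5, 2 of 8 were higher by limma, Myl7 and Nppa, where 2.25% of 12840 genes were higher. Nppa, which encodes the atrial natriuretic peptide and is also made in stressed ventricle, was at 135, 125, 84.4, 146 and 6767 in Lmna KO libraries 1 to 5, against 24.9 to 71.2 in WT libraries. In contrast to Sln, Nppa was above WT in Lmna KO library 4 too. So were Sbk2, Sbk3, Stard10 and Nr2f2, at 1.29, 2.95, 7.50 and 16.8 in that library. Their highest WT values were 0.806, 1.92, 7.29 and 14.8. Myl4, Myl7, Nr2f1 and Dhrs9 lay within the WT range there, and Kcnj3 lay below it. Whether more atrial tissue in some samples had a part in the Sln difference was not tested.

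**Figure D3:**
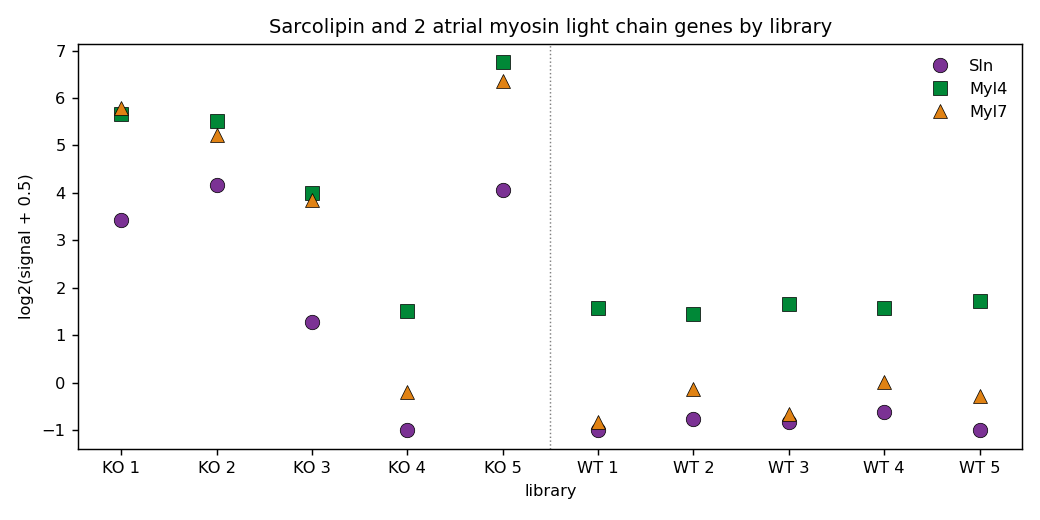
log2(signal + 0.5) of Sln, Myl4 and Myl7 (y axis) in each of the 10 libraries. The 3 genes are high in Lmna KO libraries 1, 2, 3 and 5, and in Lmna KO library 4 they are at the WT level.

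The plasma membrane calcium pumps showed small differences that did not pass. Atp2b1 (chromosome 10, 98915152 to 99026143), which encodes the widely expressed pump PMCA1, had signals of 120 to 156 in Lmna KO hearts and 131 to 160 in WT hearts. Its means were 137 ± 15.4 in Lmna KO hearts and 147 ± 11.2 in WT hearts (SD, n = 5 each), with a log2 change of -0.10 and a 95% interval of -0.32 to 0.12 (limma adjusted p = 0.582). Atp2b4 (chromosome 1, 133702674 to 133753747) encodes PMCA4, a pump linked in cardiomyocytes to local signalling. It averaged 41.7 ± 4.6 in Lmna KO hearts and 44.1 ± 2.47 in WT hearts, with a log2 change of -0.09 and a 95% interval of -0.30 to 0.13 (limma adjusted p = 0.614). For both genes the genotypes overlapped, and the intervals still hold a level lower by about 0.3 on the log2 scale in Lmna KO hearts.

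Slc8a1 (chromosome 17, 81373105 to 81738387) encodes NCX1, the main exchanger of cardiomyocytes, which trades sodium for calcium across the surface membrane. Its signals were 1244, 1147, 1048, 921 and 1176 in Lmna KO libraries 1 to 5, against 1151, 1133, 1167, 1004 and 1176 in WT libraries 1 to 5. The WT range lay within the Lmna KO range. The means were 1107 ± 126 in Lmna KO hearts and 1126 ± 70.1 in WT hearts (SD, n = 5 each), with a log2 change of -0.03 and a 95% interval of -0.28 to 0.22 (limma adjusted p = 0.898). An antisense gene, AC122399.1, shares 296 of its exon bases. Lmna KO libraries 2 and 5, in which the cardiomyocyte marker median was lowest, held Slc8a1 at 0.03 and 0.06 above the WT mean on the log2 scale.

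Slc24a2 (chromosome 4, 86983126 to 87230540) encodes NCKX2, an exchanger that moves potassium together with calcium and is known mainly from neurons and cone photoreceptors. Its signals were 7.51, 14.3, 7.73, 8.03 and 6.70 in Lmna KO libraries 1 to 5, against 1.81, 2.23, 1.67, 3.21 and 1.70 in WT libraries 1 to 5. They rested on 168, 249, 149, 150 and 132 reads in Lmna KO libraries, against 27, 48, 25, 63 and 31 reads in WT libraries. The lowest Lmna KO library was above the highest WT library. Lmna KO library 2 stood above the other 4, which lay close together.

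The means of Slc24a2 were 8.86 ± 3.10 in Lmna KO hearts and 2.12 ± 0.648 in WT hearts (SD, n = 5 each), a 4.17-fold higher level in Lmna KO hearts. The log2 change was 1.81 (standard error 0.22, 95% interval 1.34 to 2.29, limma adjusted p = 0.00688), which placed the gene at rank 6 of all 12855 by p-value. It was 1.896 without Lmna KO library 5 (adjusted p = 0.00258) and 1.64 without Lmna KO library 2 (adjusted p = 0.00607). The gene passed in all 23 alternatives fitted, with log2 changes of 1.63 to 2.12 and a highest adjusted p of 0.038. The authors' deposited table gives a log2 ratio of 2.05 and a false discovery rate of 2.86e-10 for it.

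Markers of nerve tissue overlapped between the genotypes. Of 11 markers of neurons and glia 6 were read here. They summed to 14.5, 17.8, 13.7, 15.9 and 10.2 in Lmna KO libraries 1 to 5. In WT libraries 1 to 5 the sums were 13.4, 14.9, 14.4, 17.7 and 12.5. Within each genotype the sum was highest where Slc24a2 was highest, in Lmna KO library 2 and WT library 4. None of these 6 was at 0 in every library. Of the 3 that reached the mean signal for the test 0 passed, and their median log2 change was 0.07. Of these 3, 0 had an unadjusted p under 0.05, against 2679 of all 12855 tested genes, and edgeR and DESeq2 called 0. The other 5, among them Snap25 and Th, were not analysed here. The part of nerve tissue in the Slc24a2 difference was not tested.

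**Figure D4:**
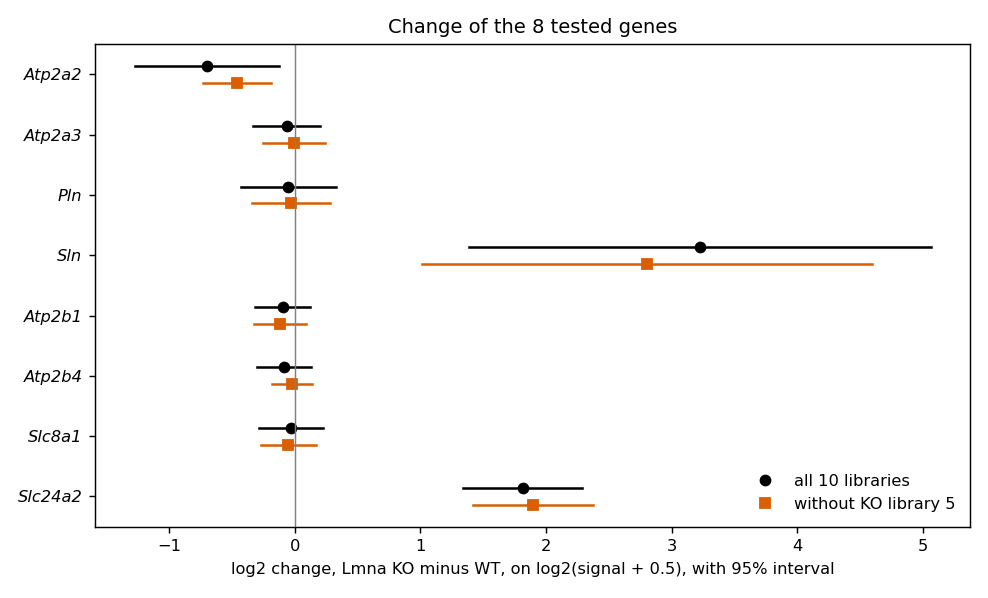
log2 change of signal, Lmna KO minus WT (x axis, on log2(signal + 0.5)), with 95% intervals for the 8 tested genes, with all 10 libraries (circles) and without Lmna KO library 5 (squares). Slc24a2 is at 1.81 and 1.896, Sln at 3.22 and 2.80 with wide intervals, and Atp2a2 at -0.70 and -0.46.

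Divided by the length of their merged exons, the genes of this group spanned a wide range of transcript levels. Pln was at 2567 signal per kilobase in Lmna KO hearts and 2636 in WT hearts, and Atp2a2 at 1529 in Lmna KO hearts and 2375 in WT hearts. Slc8a1 followed, at 58.9 per kilobase in Lmna KO hearts and 59.9 in WT hearts. Next came Atp2b1, at 9.02 in Lmna KO hearts and 9.63 in WT hearts.

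The remaining genes lay lower, and Sln changed place between the genotypes. Atp2a3 was at 4.27 signal per kilobase in Lmna KO hearts and 4.41 in WT hearts, and Atp2b4 at 3.40 in Lmna KO hearts and 3.60 in WT hearts. Sln, at 6.95 in Lmna KO hearts and 0.0474 in WT hearts, stood above both of these in the Lmna KO mean and below both in WT, with Lmna KO library 4 at 0. Slc24a2, at 0.726 in Lmna KO hearts and 0.174 in WT hearts, stayed far under Slc8a1 in either genotype. Atp2a1 was at 0.0922 in Lmna KO hearts and 0.0414 in WT hearts, the last in the order of Lmna KO means. These orders compare means, and merged exons can be longer than the transcripts made in the heart.

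Among 5 lists of other genes around these pumps and exchangers, 73 genes in all, 66 were read and 59 were tested. In the all-library limma fit 0 of 59 passed, 6 had an unadjusted p under 0.05, edgeR called 0 and DESeq2 called 6. Over all 12855 tested genes these counts were 26, 2679, 20 and 786. Without Lmna KO library 5, 3 of 59 passed, Prkar1a higher and Ryr2 and Trdn lower, where 4.96% of all genes passed.

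Other proteins that bind or steer SERCA had a median log2 change of -0.11 over 8 tested genes. Canx, a chaperone of the endoplasmic reticulum and the most abundant of them, averaged 560 ± 112 in Lmna KO hearts and 543 ± 34.2 in WT hearts (SD, n = 5 each, limma adjusted p = 0.930). Hrc, a calcium-binding protein of the sarcoplasmic reticulum lumen chosen after its values were seen, was at 338, 154, 384, 463 and 168 in Lmna KO libraries 1 to 5, against 511 to 627 in WT libraries. The genotypes did not overlap, where 6.18% of all tested genes had every Lmna KO library below every WT library. The log2 change did not pass, at -1.06 with all libraries and -0.88 without Lmna KO library 5 (limma adjusted p = 0.109 and 0.0688). In other lists, besides the genes named below, Prkar2a, Casq2 and Asph also lay below WT without overlap, and Stim1 above it. For Stim1 the lowest Lmna KO value was 19.12 and the highest WT value 19.02. Of all tested genes 10.3% did not overlap in either direction, and 4.07% had every Lmna KO library above every WT library. Paralogues of the pumps and exchangers had a median of 0.09 over 3 tested genes. The most abundant, Atp2c1, a pump of the Golgi membrane, averaged 118 ± 19.4 in Lmna KO hearts and 101 ± 5.34 in WT hearts (limma adjusted p = 0.32).

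Genes that set the phosphorylation of phospholamban had a median log2 change of -0.08 over 20 tested genes, and one of 0.03 without Lmna KO library 5. Ppp1cb, a catalytic subunit of protein phosphatase 1, averaged 627 ± 153 in Lmna KO hearts and 552 ± 33.7 in WT hearts (SD, n = 5 each, limma adjusted p = 0.579). Prkar1a, a regulatory subunit of protein kinase A, had signals of 551, 666, 558, 608 and 741 in Lmna KO libraries 1 to 5, against 391.97 to 465 in WT libraries. The genotypes did not overlap, where 4.07% of all tested genes had every Lmna KO library above every WT library. The log2 change of Prkar1a was 0.51 with all libraries (limma adjusted p = 0.0761) and 0.45 without Lmna KO library 5 (limma adjusted p = 0.0175).

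Genes of calcium release, entry and buffering had a median log2 change of -0.14 over 20 tested genes, and one of -0.05 without Lmna KO library 5. Ryr2, the release channel of the sarcoplasmic reticulum, had signals of 4286, 3280, 3714, 4042 and 2656 in Lmna KO libraries 1 to 5, against 4780 to 5993 in WT libraries. Every Lmna KO library lay below every WT library. Its log2 change was -0.64 with all libraries (limma adjusted p = 0.105) and -0.53 without Lmna KO library 5 (limma adjusted p = 0.0289).

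Trdn, triadin, which anchors that channel's complex, had signals of 319, 284, 385, 367 and 236 in Lmna KO libraries 1 to 5, against 396 to 490 in WT libraries, with no overlap. Its log2 change was -0.53 with all libraries (limma adjusted p = 0.105) and -0.43 without Lmna KO library 5 (limma adjusted p = 0.0413). Genes on the sodium side of exchange had a median of -0.02 over 8 tested genes.

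**Figure D5:**
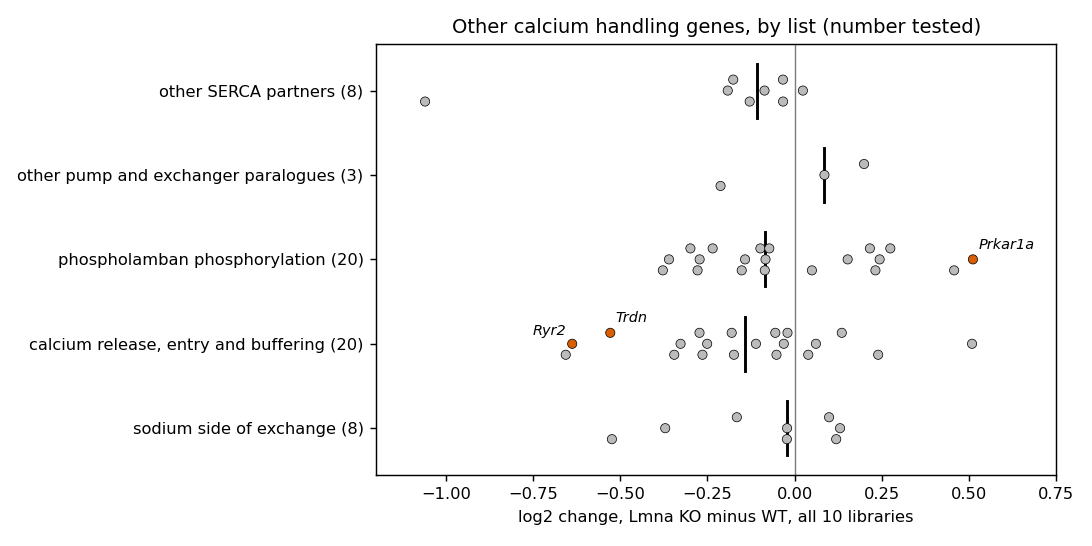
log2 change of signal, Lmna KO minus WT with all 10 libraries (x axis), for the 59 tested genes of 5 lists, with 1 point per gene and a black bar at the median of each list. Orange points are the 3 genes that passed without Lmna KO library 5, Prkar1a at 0.51, Ryr2 at -0.64 and Trdn at -0.53, and grey points did not pass.

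Some genes followed Atp2a2, Sln or Slc24a2 closely from library to library. After the mean of each genotype was removed from log2(signal + 0.5), the 3 genes most like each were taken from 10086 genes over 10 libraries, as a description without a test. For Atp2a2 these were Agk, Dgat2 and Atpaf1, with Pearson's r of 0.990, 0.989 and 0.989, and of 0.875, 0.898 and 0.909 without the 2 libraries farthest from the Atp2a2 median, Lmna KO library 5 and WT library 4. For Sln they were Myl4, Taf10 and Myl7, with r of 0.963, 0.952 and 0.952, and of 0.952, 0.893 and 0.919 without Lmna KO libraries 2 and 4. For Slc24a2 they were Pot1a, Galnt4 and Fut11, with r of 0.922, 0.920 and 0.908. Their r was 0.751, 0.636 and 0.642 without Lmna KO library 2 and WT library 4, a larger drop than for the other 2 genes. All such pairs share library preparation, depth and the makeup of the sample.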

How the data were processed

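Libraries were grouped by their genotype label. The tools named per the submitters' processing notes are edgeR, Cufflinks and TopHat2, with the build mm10. For tool versions, the read counter and any use of strand, the entry is "not given in the sources used here". For each gene and library the deposited table holds a signal value, by the table's name a CPM of the effective library size. A further deposited table holds the authors' own comparison (log2 ratio, p-value, false discovery rate). Of 14647 entries 21 carried gene names turned into dates and were left out (0.134% to 0.204% of reads). In every library 100% of values were whole multiples of 1 read (tolerance 0.01 read), so counts were recovered from the deposited signal, and edgeR's quasi-likelihood test on them called 20 genes. The limit given for a count of 0 covers counting error only.

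The test was limma on log2(signal + 0.5) with a trend and genotype as the only factor. It covered 12855 genes, those averaging a signal of 1 or more, with Benjamini-Hochberg adjustment over all of them and calls at an adjusted p under 0.05. The log2 scale understates changes of low genes. The ratio had an exact permutation test. Named genes were the 9 genes chosen by name, Lmna, for each list up to 6 called genes (or the most abundant one), again without Lmna KO library 5, and the 3 genes most correlated with each of Atp2a2, Sln and Slc24a2. 1 gene that this rule took is not reported here. The genes, lists and alternatives were chosen with earlier results of these data known. Alternatives were pseudocounts of 0.1 and 1, no filter or a mean of at least 5, 2 other scalings, robust moderation, library weights, a replicate block, edgeR, DESeq2 and leaving libraries out. Each library counted as 1 sample, since no pair within a genotype was as close as sampling noise allows (chi-square over its degrees of freedom 5.09 or more). The functions were tested on simulated data. Versions were R 4.3.3, limma 3.58.1, edgeR 4.0.16, DESeq2 1.42.0 and Python 3.11.15.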

Additional observations from a re-analysis of the deposited data

Results flagged for a closer look

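In 4 of 22 groups of 5 libraries 1 value stood apart, with a gap to its nearest neighbour of more than 0.71 of the group's range, where chance gives about 1 in 20 groups. Atp2a2 was lowest in Lmna KO library 5, at 4560 against 9926 for the next. Pln was highest in Lmna KO library 2, at 9248 against 6764 for the next. Slc24a2 was also highest in Lmna KO library 2, at 14.34 against 8.035 for the next. Slc8a1 was lowest in WT library 4, at 1004 against 1133 for the next. The groups share libraries, so these values are not independent of each other.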

How the results depend on the processing

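Counts of called genes depended on the libraries and the test. Against 26 genes by limma with all libraries, leaving out 1 library at a time gave 6 to 637, and the highest count came without Lmna KO library 5 (39 without Lmna KO library 4, 9 or fewer without any 1 WT library). DESeq2 called 786, edgeR's quasi-likelihood test without Lmna KO library 5 called 651, library quality weights 2280, a mean signal of at least 5 gave 14, and leaving out Lmna KO libraries 2 and 5 gave 1368. Under the same settings other than the minimum of 5, the members called were 2, 3, 3 and 2, against 1, and 1 to 2 with 1 library left out. The pathway genes called were 6, 3, 12 and 11, against 0, and 0 to 3 with 1 library left out. The cause of these shifts was not tested.

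Samples with the same number had correlations of deviations of -0.13 to 0.18, and 2 of 10 libraries correlated best with their own number. This check found no pairing by number, and with so few libraries it cannot exclude one. With the replicate block 35 genes were called, and the log2 difference of the Pln to Atp2a2 ratio stayed at 0.65 with a sign-flip p of 0.0625, the smallest that 5 pairs allow.

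Slc24a2 and Lmna passed in 23 of 23 alternatives. Several small log2 changes that did not pass turned sign. Atp2a3 was at 0.0085 with edgeR without Lmna KO library 5, 0.081 with library weights, 0.10 without Lmna KO libraries 2 and 5 and 0.0033 without library 2. Atp2b4 was at 0.020 with weights, Pln at 0.0012 without Lmna KO library 1 and Slc8a1 between -0.074 and 0.034 with 1 library left out (0.034 without Lmna KO library 4). Canx was at -0.078, -0.14 and -0.15 under the first 3 of these settings and between -0.082 and 0.081 with 1 library left out. Ppp1cb was at -0.035 with weights and -0.095 without Lmna KO libraries 2 and 5. Sln could not be fitted with a minimum mean signal of 5. Depth limits Atp2a1 and Sln most, with 2 to 11 reads per library for Atp2a1 and 0 to 3 for Sln in WT libraries.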
